A study of Drosophila melanogaster with 22 samples.

Results

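Peaks of open chromatin were examined at Tgi and at 9 core genes of the Hippo pathway (yki, sd, hpo, sav, wts, mats, kibra, ex and ft) in isolated hearts of Drosophila melanogaster. These are 10 of the 13962 protein-coding genes of the annotation used. A peak was assigned to a gene when it overlapped the gene or 1 kb on either side of it. The 22 deposited peak lists held 696 such peaks, of 227249 in all, and 27 to 40 in each library. After the lists had been brought to one length and merged, 29 of 9850 regions lay at these genes. Tgi, and the pathway with it, was selected on the rank of a peak at the end of Tgi, which was higher after LamC knockdown than in the attp2 controls. All values in that comparison, calls and positions included, are therefore a description and no test of these genes.

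The Hippo pathway restrains tissue growth. When it is active, the kinase Hpo, with its scaffold Sav, phosphorylates the kinase Wts and its cofactor Mats, and Wts then phosphorylates the coactivator Yki, which keeps Yki out of the nucleus. Unphosphorylated Yki enters the nucleus and drives growth genes together with the DNA-binding protein Sd, while Tgi competes with Yki for Sd and keeps those genes low. Kibra, Ex and the cadherin Ft act upstream of the kinases. In the mouse heart the pathway limits the proliferation of cardiomyocytes.

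The libraries were made by bulk ATAC-seq, in which a transposase cuts accessible DNA. LamC RNAi flies (Hand-Gal4 crossed to a LamC RNAi line, 4 libraries) were set against attp2 flies (Hand-Gal4 crossed to attp2, 4 libraries), and LamB RNAi flies (Hand-Gal4 crossed to a LamB RNAi line, 5 libraries) against attp40 flies (Hand-Gal4 crossed to attp40, 3 libraries), all at 1 week of age. Hearts of the w1118 strain were taken at 5 weeks and at 1 week (3 libraries each) and no driver is named for them. LamC and LamB are the A-type and B-type nuclear lamins, and Hand-Gal4 is a driver active in the heart, so that knockdown is limited to cells with the driver while the whole heart was sequenced. ATAC-seq does not measure lamin RNA or protein, so the extent of the knockdowns was not checked. By the design text there should be 3 LamC RNAi and 4 LamB RNAi libraries, but 4 and 5 samples carry those labels and none was left out. Whether the libraries of a group came from separate flies is not stated, and p-values then cover only the spread among these libraries, part of which may be technical. Dates in the labels of the deposited lists put LamC RNAi replicates 3 and 4 on the same day, and attp40 replicate 3 in February, with the rest of the LamB comparison in July. What the dates stand for is not given.

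Of 10 genes that mark cardioblasts and heart muscle, 7 had a peak at some region in every library, not necessarily the same region. No region was found at tin and Doc1, a pair of defining cardiac transcription factors. A peak in every library was also found at 3 of 5 markers of pericardial nephrocytes, 2 of 5 of hemocytes, 2 of 4 of fat body and 2 of 4 of neurons. The same held for 2 of 5 markers of alary and somatic muscle and 2 of 3 of trachea and epidermis. Cubn, eater, Fbp1, nSyb, Act88F, Act79B and btl had no region. These counts cover only the merged regions of the shortened lists described below, kept when 3 or more libraries had a peak. Weaker or rarer peaks of the full lists are not counted. The deposited lists held 8491 to 12395 peaks. Reads were not used and the depth is unknown, so peaks were ranked within each list by the authors' −log10 p and the first 8491 kept. A region's rank score in a library is 1 for the strongest peak of that list, falls evenly with rank, and is 0 where the shortened list has no peak there, even if the full list holds a weaker one. The score is therefore a position relative to the other peaks of the same heart library, and a change in it at one region can come with changes elsewhere. In bulk hearts, fewer nuclei with an open region and less opening per nucleus cannot be told apart.

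Tgi, the Tondu-domain-containing growth inhibitor that binds Sd, covers 15696 bp of chromosome arm 3L (dm6, 13486797 to 13502492). It had 4 regions, numbered here from the low-coordinate end. The gene table holds spans without strand or exons, so ends are called low and high, and exons and introns are not told apart. Tgi region 1 (3L, 13485985 to 13487274) spans the low end of Tgi, the 516 bp between the genes and the high end of Abp1, which encodes an actin-binding protein. Its summits lay 25 to 74 bp outside Tgi in all 22 libraries, in the stretch between Tgi and Abp1, so the signal cannot be assigned to one of the 2 genes.

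Region 1 scored 0.946, 0.892, 0.929 and 0.918 in the 4 LamC RNAi libraries, against 0.813, 0.780, 0.745 and 0.716 in the 4 attp2 libraries. In the LamC RNAi lists it was the peak at rank 457, 921, 603 and 694, and in the attp2 lists at rank 1593, 1873, 2163 and 2413. The groups did not overlap. The scores averaged 0.921 ± 0.023 in LamC RNAi hearts and 0.763 ± 0.042 in attp2 hearts (SD, n = 4 each), a difference of 0.158. Region 1 was the 1 member region of 29 called in this comparison (limma), where 0.152% of all regions were called, and the 1 of 29 that was higher with no overlap, where 1.59% of all regions were. None of the 29 was lower with no overlap, against 1.49% of all regions. Nothing is read from these counts, since the comparison chose the gene.

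**Figure D1:**
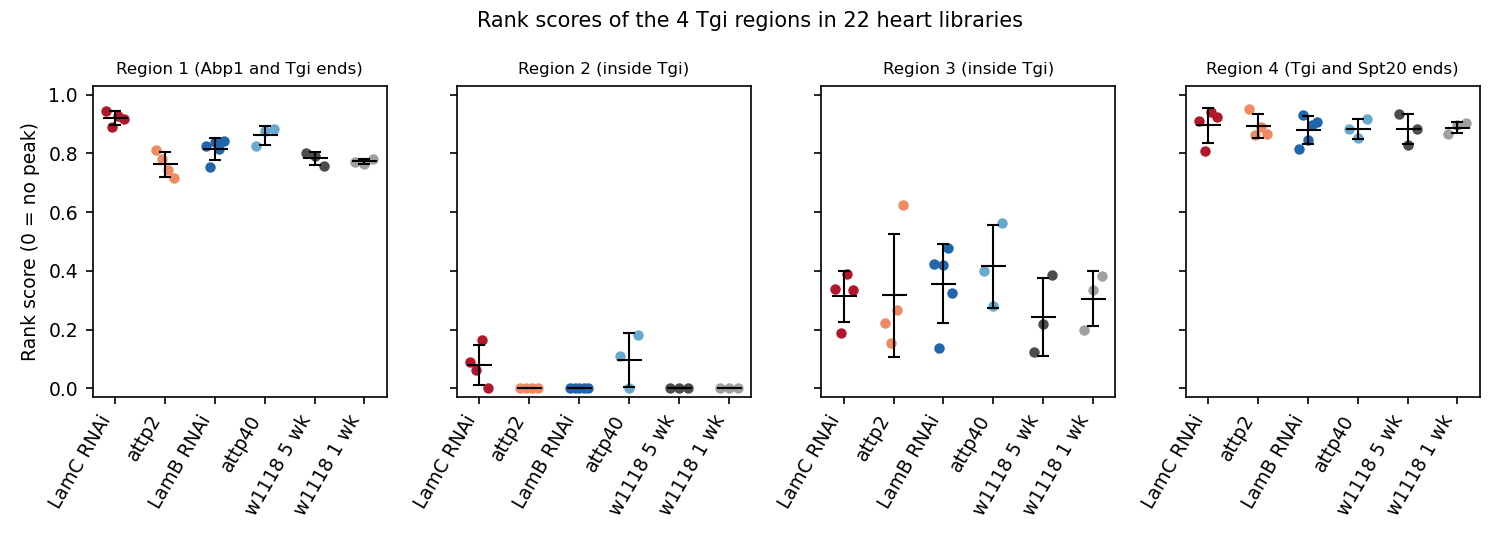
Rank scores (vertical axis, 0 to 1, no unit) of the Tgi regions in every library, by group, with a point for each library and black bars for the group mean ± SD. At region 1, next to Abp1, the 4 LamC RNAi libraries (0.892 to 0.946) lie above all 18 others (0.716 to 0.885), as at 0.102% of all regions. Region 1 was selected on LamC RNAi against attp2. At region 4, next to Spt20, the groups overlap.

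The other 14 libraries gave region 1 a score within or above the attp2 range. LamB RNAi hearts had 0.826, 0.754, 0.839, 0.816 and 0.844, against 0.825, 0.875 and 0.885 in attp40 hearts. At 5 weeks w1118 hearts had 0.800, 0.792 and 0.758, against 0.772, 0.765 and 0.781 at 1 week. In order of the means, LamC RNAi was highest at 0.921, followed by attp40 at 0.862 ± 0.032, LamB RNAi at 0.816 ± 0.036, w1118 at 5 weeks at 0.784 ± 0.023, w1118 at 1 week at 0.773 ± 0.008 and attp2 at 0.763 (SD). Neighbouring groups in this order overlapped except LamC RNAi and attp40. All 4 LamC RNAi libraries lay above all 18 others, as at 0.102% of all regions, and they lay below all others at 0.0406%. Region 1 was selected for high LamC RNAi values against the 4 attp2 libraries among the 18, so this is a description.

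The libraries of the 2 control lines did not overlap at region 1. The lowest attp40 library, at 0.825, lay above the highest attp2 library, at 0.813, and the means differed by 0.0982. Such a gap between the control lines, with attp40 above, was found at 5.08% of all regions. LamC RNAi hearts exceeded attp40 hearts by 0.0598, less than they exceeded attp2 hearts. The attp2 and LamC RNAi values took part in the choice of region 1, so both gaps are a description. Whether the control lines differ there was not tested.

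By the authors' fold enrichment over local background the groups were not separated. Region 1 had 9.66, 8.72, 10.1 and 7.30 in LamC RNAi libraries, against 7.86, 9.34, 8.74 and 7.54 in attp2 libraries, which is 8.94 ± 1.24 and 8.37 ± 0.82 (SD, n = 4 each). When peaks were ranked by fold in place of −log10 p, the scores were 0.851, 0.807, 0.873 and 0.758 in LamC RNAi hearts and 0.781, 0.752, 0.743 and 0.677 in attp2 hearts. The difference was then 0.0844, and the groups overlapped. The authors' −log10 p at region 1 was 62.6 to 125 in LamC RNAi hearts and 35.5 to 64.5 in attp2 hearts, which overlapped. These values are relative to each library. The median −log10 p of the full lists was 18.2 to 32.6 in LamC RNAi and 15.8 to 25.3 in attp2 libraries. Leaving out each library in turn kept the −log10 p score difference between 0.142 and 0.174. Region 1 was chosen on this difference in the same libraries, so that range is a description.

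**Figure D2:**
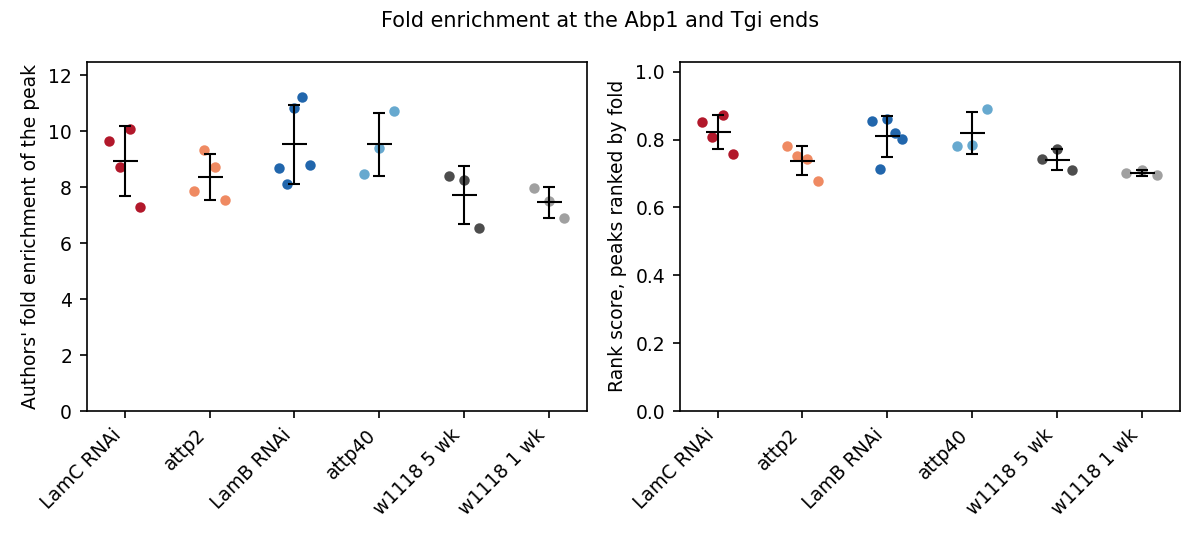
Tgi region 1, next to Abp1, by the authors' fold enrichment (left) and by rank score with peaks ranked by fold (right, 0 to 1, no unit), with a point for each library and black bars for the group mean ± SD. LamC RNAi and attp2 libraries overlap in fold (7.30 to 10.1 and 7.54 to 9.34) and in its rank score (0.758 to 0.873 and 0.677 to 0.781).

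At the other 3 Tgi regions the LamC RNAi and attp2 libraries overlapped. Region 2 (3L, 13488507 to 13489192, inside the gene) was a weak peak, with scores of 0.090, 0.0607, 0.165 and 0 in LamC RNAi hearts and 0 in all 4 attp2 hearts, although 2 of the full attp2 lists held a peak there. It reached 0.109, 0 and 0.180 in attp40 hearts, against 0 in all 5 LamB RNAi hearts, and 0 in all 6 w1118 hearts. Region 3 (3L, 13494459 to 13495423, inside the gene) was present in all 22 libraries at group means of 0.243 to 0.415. It averaged 0.313 ± 0.086 in LamC RNAi hearts and 0.317 ± 0.209 in attp2 hearts.

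Region 4 (3L, 13502370 to 13503158), over the high end of Tgi and the 214 bp that separate it from Spt20, a gene of the SAGA coactivator complex, had the highest mean of the Tgi regions. It scored 0.911, 0.809, 0.940 and 0.923 in LamC RNAi hearts, against 0.951, 0.864, 0.890 and 0.867 in attp2 hearts. The means were 0.896 ± 0.059 and 0.893 ± 0.040 (SD, n = 4 each), a difference of 0.00289. Across all 6 groups its means stayed between 0.879 and 0.896.

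Along 3L around Tgi, the nearest region on the low side, at stv, was lower in LamC RNAi hearts with no overlap (0.507, against 0.601 in attp2 hearts), and the nearest on the high side beyond Tgi, at Vps36 and Liprin-beta, overlapped (0.883, against 0.852 in attp2 hearts). Region 1 stood at position 7 of the 15 regions called between LamC RNAi and attp2. Since this comparison chose the gene, its call and position there are a description only. The last regions inside that threshold were at Rim2 and Eno (0.341 in LamC RNAi hearts, 0 in attp2 hearts) and at Zasp52 (0.319 and 0.0154). The first outside were at CG11044 (0.0337 and 0.263) and CG31808 (0.151 and 0.667).

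The regions whose scores ran most like Tgi region 1 over the 22 libraries were found by Pearson's r. They were a gene-free region at X, 95371 to 95831 (r = 0.751), a region on an unplaced scaffold (0.735), one at Gadd45 (0.719), one at Ugt301D1 (0.701) and one on a Y scaffold (0.700). The points share 6 groups and the LamC RNAi libraries for which region 1 was picked, so these values are a description. At Gadd45, known in animals for a role in stress responses, the mean score was 0.656 in LamC RNAi hearts and 0.330 in attp2 hearts. The unplaced scaffold region had 0.996 in LamC RNAi and 0 in attp2 hearts, but also 0.981 in LamB RNAi and 0.934 in attp40 hearts. At the X, Ugt301D1 and Y regions the LamC RNAi means were 0.286, 0.170 and 0.221, and the attp2 means 0.00945, 0 and 0.

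The nuclear effectors yki and sd each had a region with a peak in all 22 libraries. yki, the coactivator and homolog of YAP and TAZ, had 1 region, over its high end beside Gpat4 (2R, 24068213 to 24069508). It scored 0.583, 0.675, 0.646 and 0.631 in LamC RNAi hearts, against 0.753, 0.705, 0.481 and 0.738 in attp2 hearts, and the groups overlapped. LamB RNAi hearts had 0.637, 0.526, 0.611, 0.578 and 0.668, against 0.681, 0.651 and 0.663 in attp40 hearts. At 5 weeks w1118 hearts had 0.601, 0.674 and 0.612, against 0.518, 0.490 and 0.518 at 1 week, and these groups did not overlap.

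sd encodes the TEAD-family protein that brings Yki to DNA. Its region 2 (X, 15811496 to 15813632), 7126 bp inside the gene with CG8509 within 1 kb, was among the strongest peaks of every heart, at ranks 8 to 45 with a median of 24. Its mean score exceeded that of 99.9% of all regions, and its group means lay between 0.996 and 0.998. Region 1 of sd, over the low end near PGRP-LE, scored 0.691, 0.666 and 0.618 in 5-week w1118 hearts, against 0.528, 0.623 and 0.552 in 1-week hearts. Region 3 of sd, inside the gene, had a peak in 9 of the 22 shortened lists and in 19 of the full ones.

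In the kinase cassette, hpo, sav and mats are short genes and the regions at them lay over their ends, apart from a mats region beyond its high end. hpo, the Ste20-family kinase, had 1 region, over its high end beside CG15120 (2R, 19496430 to 19497354), present in all 22 libraries. It scored 0.682, 0.791, 0.771 and 0.494 in LamC RNAi hearts and 0.796, 0.698, 0.771 and 0.650 in attp2 hearts. sav, the scaffold that joins Hpo and Wts, had 1 region (3R, 23060933 to 23061900) close to Ublcp1 and CG17111. It scored 0.464, 0.392 and 0.466 in 5-week hearts, against 0.170, 0.246 and 0.345 in 1-week hearts, with no overlap. LamB RNAi replicates 3 and 4 scored 0 there, replicate 4 with a weaker peak in its full list, while the other 3 LamB RNAi libraries had 0.466, 0.405 and 0.379.

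mats, the Mob-family cofactor of Wts, had a region over its low end beside Nop56 (3R, 22420770 to 22421599) that scored 0.707, 0.724, 0.761 and 0.630 in LamC RNAi hearts, against 0.833, 0.820, 0.881 and 0.757 in attp2 hearts. The lowest attp2 library fell just under the highest LamC RNAi library, so the groups overlapped. The difference of −0.118 was the most negative of the 29 in this comparison. A second region, 944 bp beyond the high end of mats and close to pinta, also scored 0 in LamB RNAi replicates 3 and 4, although all 22 full lists held a peak there. Those 2 libraries correlated at r = 0.932 over all regions, at 0.867 to 0.900 with replicates 2 and 5, which correlated with each other at 0.949.

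wts, the NDR-family kinase that phosphorylates Yki, had 6 regions, 4 of them inside the gene. Its region 1, over the low end beside zfh1 (3R, 30789347 to 30789960), scored 0.480, 0.391, 0.546 and 0.282 in LamC RNAi hearts, against 0, 0.327, 0.418 and 0 in attp2 hearts. This was the widest difference of the 29 at 0.239, but the groups overlapped and single libraries elsewhere ran from 0 to 0.634. Regions 5 and 6 of wts, near and over the high end beside dj-1beta, were present in all libraries, with LamC RNAi means of 0.679 and 0.760 and attp2 means of 0.693 and 0.725. Region 3 had a peak in 3 shortened lists and region 4 in 8, against 9 and 14 of the full lists.

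Upstream of the kinases, kibra, which encodes a WW-domain protein, had 8 regions over 26573 bp, the most of the 10 genes. Its region 1, over the low end beside Meltrin (3R, 14696661 to 14697695), ranked 45 to 264 in every list, and region 8, over the high end beside CG7530, had group means of 0.880 to 0.955. Region 8 scored 0.898, 0.924, 0.866 and 0.831 in LamC RNAi hearts, against 0.911, 0.935, 0.944 and 0.956 in attp2 hearts. The 6 regions in between were weaker, and regions 3 and 6 had a peak in 4 and 7 shortened lists.

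ex, the FERM-domain protein Expanded, had 1 region over its low end (2L, 430967 to 431893) and 1 inside (2L, 434469 to 436126). Region 2 averaged 0.727 in LamC RNAi hearts and 0.702 in attp2 hearts. ft, the atypical cadherin Fat, is 23393 bp long, and no deposited peak of any library lay in its span. Its 1 region (2L, 4196495 to 4198339) ended 65 bp before the gene, beside Naprt, and averaged 0.500 in LamC RNAi hearts and 0.396 in attp2 hearts, with overlap. An empty span was found at 156 of the 1012 protein-coding genes of at least 20 kb (15.4%).

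**Figure D3:**
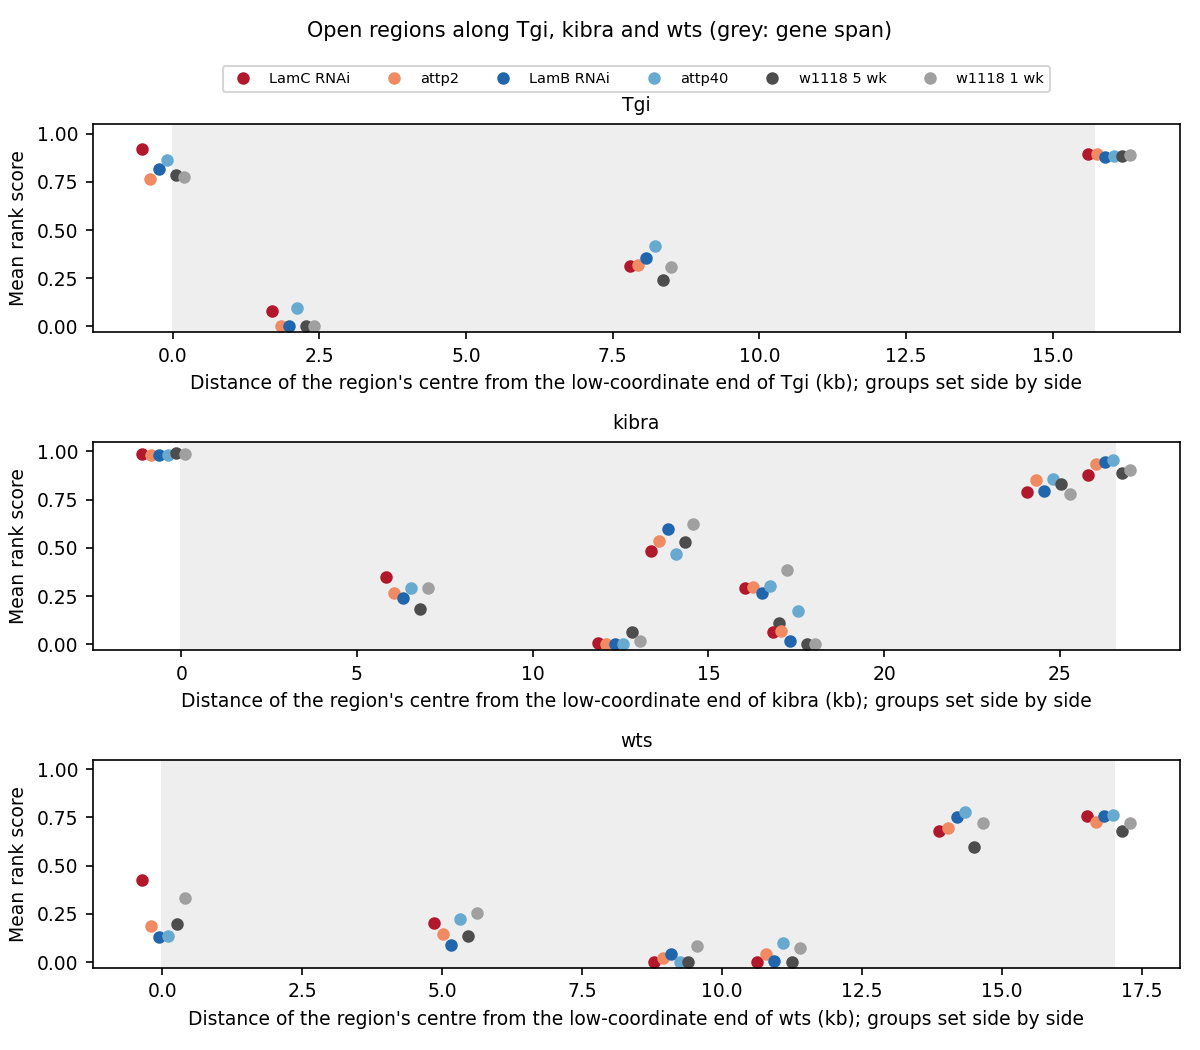
Mean rank score (vertical axis, no unit) of each region along Tgi, kibra and wts, with distance from the gene's low-coordinate end in kb on the horizontal axis, the gene span in grey and a coloured point for each group, set side by side. The regions at the gene ends score highest in Tgi and kibra. The LamC RNAi point stands above the others at Tgi region 1 (0.921), which was selected on LamC RNAi against attp2.

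By place, 12 of the 29 regions lay over a gene's end, 15 inside and 2 outside. The median mean score was 0.726 over ends and 0.271 inside, against 0.511 for all 29 and 0.378 for all 9850 regions. The 9850 regions were not split by place, so the medians over ends and inside have no like value beside them. A peak was present in all 22 libraries at 18 of 29 regions (62.1%), and at 53.3% of all regions. Another protein-coding gene lay within 1 kb of 14 of the 29.

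**Figure D4:**
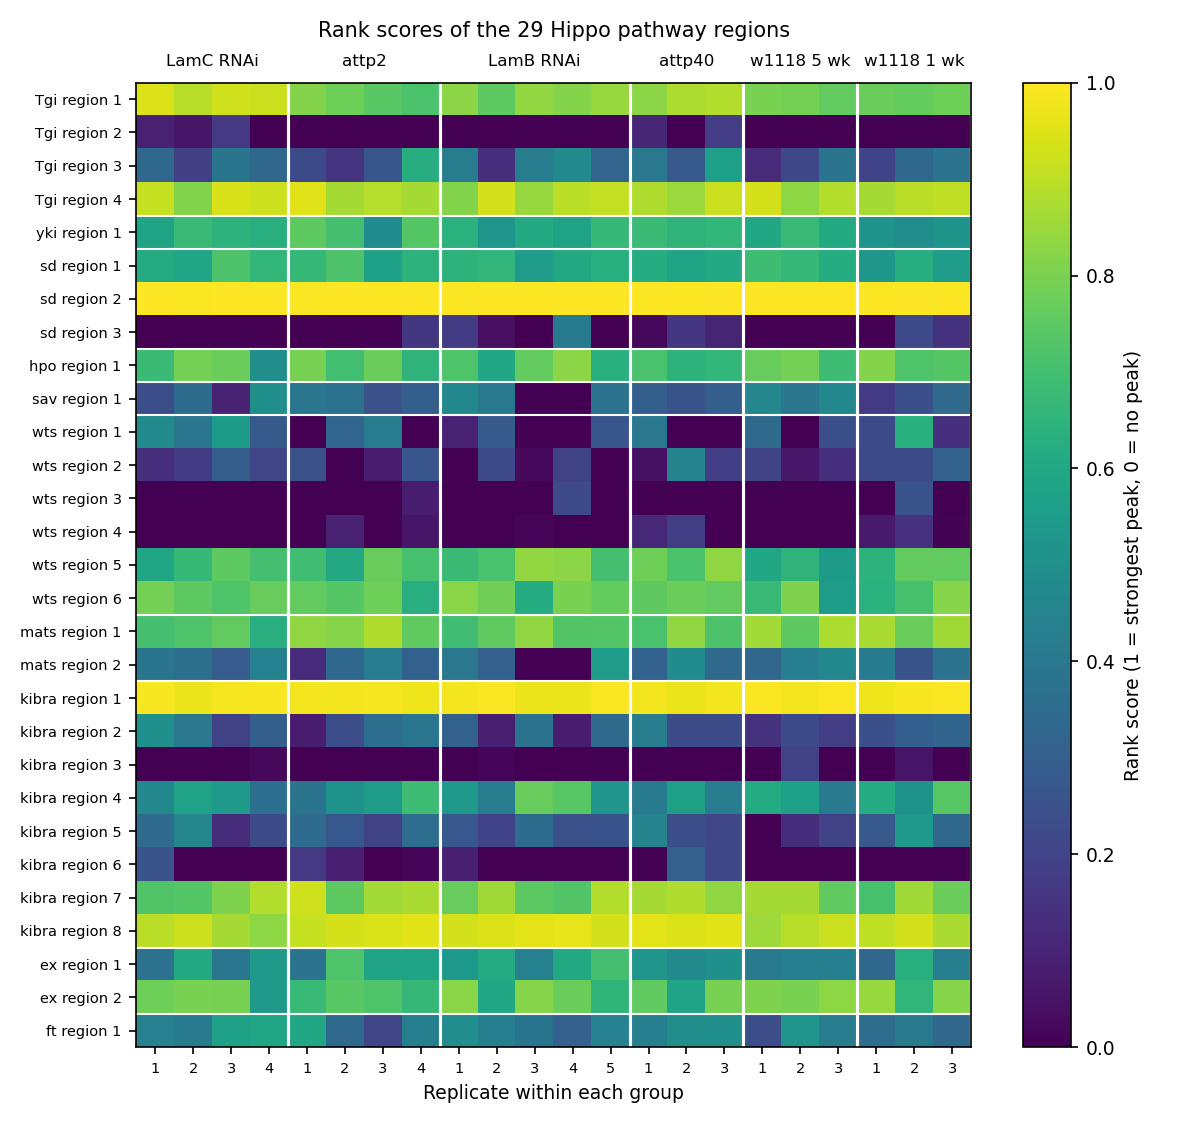
Rank score (colour, 0 to 1, no unit) of the 29 regions in rows and the 22 libraries in columns, ordered by group. The rows of sd region 2 and kibra region 1 are near 1 in every library, and wts region 3 is at 0 in all but 3. Tgi region 1, selected on LamC RNAi against attp2, is the row in which all 4 LamC RNAi libraries stand above the rest.

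Age was compared over the w1118 hearts with limma on all 9850 regions, with Benjamini-Hochberg adjustment. None of the 29 regions passed, against 1.32% of all regions, and 2 of 29 had an unadjusted p under 0.05, against 11.6%. The lower of these p-values belonged to kibra region 5 (3R, 14714039 to 14714606), which scored 0, 0.130 and 0.194 in 5-week hearts, against 0.280, 0.538 and 0.336 in 1-week hearts. The difference was −0.277 ± 0.092 (SE, limma adjusted p = 0.176), and all 3 libraries at 5 weeks lay below all 3 at 1 week. The full list of 5-week replicate 1, the longest of the 22, held a peak there (fold 3.17, against 3.35 in 5-week replicate 2). Ranked by fold, the difference at kibra region 5 was −0.0782 (limma adjusted p = 0.937). At wts region 5 the scores were 0.598, 0.652 and 0.544 in 5-week hearts, against 0.648, 0.761 and 0.759 in 1-week hearts (difference −0.125 ± 0.054, limma adjusted p = 0.350), and the difference ran from −0.250 to −0.0709 over the alternative settings.

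Scores higher at 5 weeks with no overlap were found at yki region 1 and sav region 1, 2 of 29 where 7.13% of all regions were. The differences were 0.120 ± 0.059 for yki (limma adjusted p = 0.440, and 0.0975 to 0.252 over the alternative settings) and 0.187 ± 0.116 for sav (limma adjusted p = 0.618). Lower scores with no overlap were found at 4 of 29, wts regions 2 and 4 and kibra regions 2 and 5, where 7.82% of all regions were. The median difference over the 29 was −0.00530, against 0 over all regions. Tgi region 1, the one that ranked higher in LamC RNAi hearts, differed by 0.0109 ± 0.0277 with age (limma adjusted p = 0.991).

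Summed scores of the marker lists also differed between the ages, with no overlap in any list but the neuronal one. The summed score of 5 nephrocyte markers was 1.70 to 1.88 in 5-week hearts and 2.40 to 2.73 in 1-week hearts, and that of 5 hemocyte markers 1.41 to 1.49 and 1.62 to 1.81. The 10 cardioblast and heart muscle markers summed to 4.46 to 5.05 at 5 weeks and 5.18 to 5.66 at 1 week, and the 4 fat body markers to 1.79 to 2.07 and 1.37 to 1.77. The alary and somatic muscle markers summed to 1.70 to 2.045 at 5 weeks and 2.09 to 2.23 at 1 week, the trachea and epidermis markers to 1.40 to 1.63 and 1.67 to 1.70, and the neuron markers to 1.42 to 1.64 and 1.38 to 1.57. These sums were not tested, nor was their part in the age differences. No like sums were made for other sets of genes, so it is not known how often sums separate the ages. Of all single regions, 7.13% were higher and 7.82% lower at 5 weeks with no overlap. In the LamC and LamB comparisons the sums of each of these lists overlapped, for example those of the cardioblast markers (4.42 to 5.06 in LamC RNAi hearts, 4.91 to 5.55 in attp2 hearts).

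For LamB knockdown, limma called none of the 29 member regions, against 0.183% of all regions, 3 had an unadjusted p under 0.05, against 6.40%, and none separated the groups, against 3.16%. The lowest p belonged to Tgi region 2, at 0 in all 5 LamB RNAi hearts and 0.109, 0 and 0.180 in attp40 hearts (difference −0.0962 ± 0.0335, limma adjusted p = 0.506). The full lists held a peak there in 4 of 5 LamB RNAi and 2 of 3 attp40 libraries. Next were wts region 4 (−0.0959, limma adjusted p = 0.547) and kibra region 6 (−0.156, limma adjusted p = 0.564). Single attp40 libraries moved these values. Without replicate 2 the differences were −0.144, −0.0528 and −0.0893 at Tgi region 2, wts region 4 and kibra region 6, without replicate 3 they were −0.0544 and −0.146 at Tgi region 2 and wts region 4, and without replicate 1 it was −0.242 at kibra region 6. A count of 0 does not show that the scores did not differ. Tgi region 1 differed by −0.0461 ± 0.0248 in LamB RNAi hearts, overlapping with attp40 hearts (SE, limma adjusted p = 0.844), and by −0.00916 when ranked by fold. The median over the 29 was −0.00799, against −0.00296 over all regions. The age and LamB changes were also set against each other in the same fit. No member region passed, against 0.152% of all regions, and the lowest p was at yki region 1 (limma adjusted p = 0.722).

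**Figure D5:**
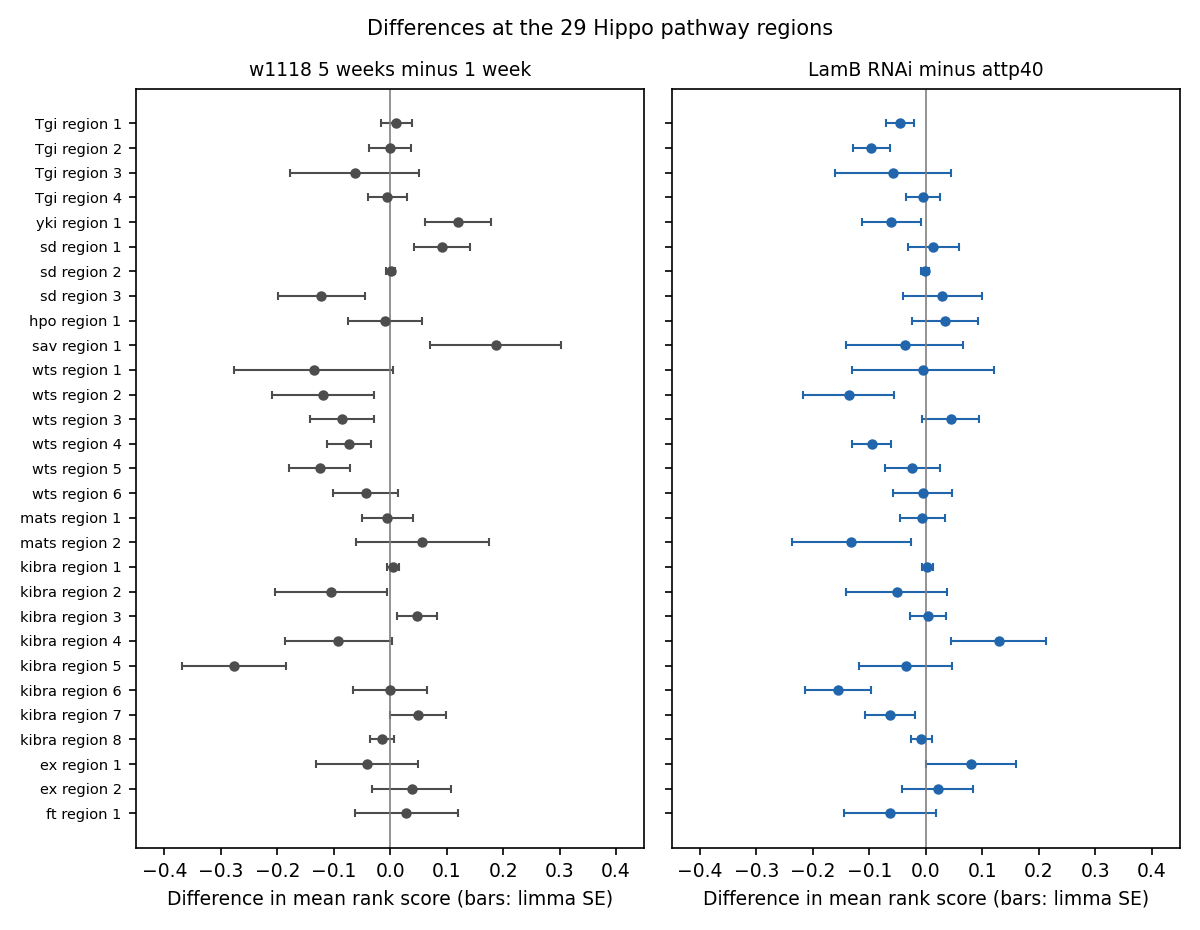
Difference in rank score (horizontal axis, no unit) of each of the 29 regions for w1118 at 5 weeks minus 1 week (left) and LamB RNAi minus attp40 (right), with limma's standard error as bars. Farthest from 0 are kibra region 5 with age (−0.277) and kibra region 6 with LamB knockdown (−0.156), and neither was called.

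Beyond the 10 members, 43 further genes of the pathway were examined as upstream inputs, kinases and STRIPAK phosphatase subunits, Yki partners and targets. Of these, 39 had 113 regions, and ds, fj, mir-ban and upd1 had none. With age, 1 of 113 regions was called higher and 0 lower (limma), against 0.609% and 0.711% of all regions. It lay at dally, a Yki target that encodes a heparan sulfate proteoglycan (3L, 8860372 to 8861108). It scored 0.228, 0.645 and 0.469 in 5-week hearts, against 0.0584, 0.0868 and 0 in 1-week hearts (difference 0.399 ± 0.098, limma adjusted p = 0.0420). The call was lost in 10 of 15 alternative settings, with adjusted p-values from 0.00617 to 0.484, and in 5 of the 6 that left out a single library.

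The genes with the next lowest p-values with age were hth, a homeobox partner of Yki, with 2 regions (0.00946 at 5 weeks and 0.325 at 1 week, limma adjusted p = 0.0814, and 0.767 and 0.884, limma adjusted p = 0.171), Ilp8, an insulin-like peptide (0.198 and 0.00126, limma adjusted p = 0.0961), and Sik2, a kinase (0.550 and 0.783, limma adjusted p = 0.172). The Ilp8 region had a peak in 4 of the 22 shortened lists, and its SD at 5 weeks was 0.214. At Ilp8 and Sik2 the age groups overlapped, and at these hth regions they did not. None of the 113 was called for LamB. The lowest p-values there were at mask (difference −0.168, limma adjusted p = 0.601), Mad (0.158, limma adjusted p = 0.669) and msn (−0.106, limma adjusted p = 0.704). Over the 113 regions the median difference was 0 in both comparisons.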

How the data were processed

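ATAC-seq peak lists of 22 Drosophila heart libraries were used as deposited, 1 narrowPeak list per library. Bowtie2, SAMtools, Picard and MACS2 and build dm6 are named in the submitters' processing notes, with no versions or settings. Whether reads were shifted for the transposase is also not stated there. In the authors' lists each peak has a fold enrichment (a ratio to local background), a −log10 p-value, a −log10 q-value and a summit offset, each relative to its own library. Reads were not used, so depth and counting error are unknown.

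Each list was limited to its 8491 strongest peaks by −log10 p, the length of the shortest, and merged (1 bp overlap). A region was kept if 3 or more of the 22 libraries had a peak in it (9850). The rank score is 1 minus rank less 1 over list length, 0 without a peak. limma 3.58.1 (R 4.3.3, empirical Bayes with trend, 6 groups, all libraries) tested age and LamB, with Benjamini-Hochberg adjustment over all regions and a threshold of 0.05. The procedure was tested on simulated data. LamC tests serve as background, and the call and position of Tgi region 1 in them are given as a description only. Gene spans came from RefSeq (Release 6 plus ISO1 MT, the assembly of dm6); regions within 1 kb were assigned.

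The members, gene lists and marker lists were chosen with earlier results of these data known. All members are named; of other pathway genes, those called and up to 3 more per comparison with the lowest p. The rule for a representative Tgi region, the highest mean score, picks region 4, not region 1, for which Tgi was chosen, so both are given. Alternatives were list length, ranking by fold, −log10 q of at least 5, region filters, shortened peaks, library weights, other samples in the fit, a replicate block, gene windows of 0 bp and 5 kb, and each library left out.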

Additional observations from a re-analysis of the deposited data

Results flagged for a closer look

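Each member region was examined for a library far from the rest of its group, in the 81 groups of 4 or 5 libraries in which scores varied, and 9 were found. Chance marks about 1 in 20 groups of continuous values, a rate that does not apply to groups tied at 0. In 8 of the 9, a single library had a peak in its shortened list and the others of its group were tied at 0. These were sd region 3 in attp2 replicate 4 (0.163), wts region 3 in attp2 replicate 4 (0.0809) and in LamB RNAi replicate 4 (0.220), and wts region 4 in LamB RNAi replicate 3 (0.0188). The others were kibra region 3 in LamC RNAi replicate 4 (0.0223) and LamB RNAi replicate 2 (0.0174), and kibra region 6 in LamC RNAi replicate 1 (0.255) and LamB RNAi replicate 1 (0.0881). These regions had a peak in 3 to 9 of the 22 shortened lists. The ninth was ex region 2, where LamC RNAi replicate 4 had 0.537 and the other 3 LamC RNAi libraries 0.778 to 0.799.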

How the results depend on the processing

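The count of member regions called for age and for LamB stayed at 0 under every alternative run. The difference at the Tgi and Abp1 region between LamC RNAi and attp2, 0.158, was 0.316 with lists cut to 4245 peaks. That change comes from the scale of the score, on which the same ranks lie farther apart in a shorter list. When peaks were ranked by fold the difference was 0.0844, and the cause of that was not tested. Over all regions, the age count of 130 became 27 with lists cut to 4245 peaks, 349 with all deposited peaks, 68 with a peak required in at least 6 libraries, 224 with library weights and 20 with the groups compared only. Leaving out each library in turn gave 61 to 171 for age (61 without w1118 5-week replicate 3, 67 without 1-week replicate 3), 12 to 22 for LamC (15 in all) and 8 to 24 for LamB (18 in all; 10, 9 and 8 without LamB RNAi replicates 1, 4 and 5, and 9 without attp40 replicate 3). The LamC count became 4 and the LamB count 7 with the groups compared only, and the LamB count became 11 with peaks shortened around the summit. Without LamB RNAi replicates 3 and 4, an alternative chosen after seeing the data, no member region was called for LamB.

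Whether replicate numbers pair the libraries was not settled, since each comparison had only 3 or 4 such pairs. Same-numbered deviations correlated at 0.0237 to 0.147 for age, −0.274 to 0.0385 for LamC and 0.0841 to 0.213 for LamB. In the same order, 2 of 3, 1 of 4 and 2 of 3 libraries correlated best with their own number. With the replicate block, in the groups compared only, 0 regions were called for age, 1 for LamC and 0 for LamB. Shortening the lists removed weak peaks: Tgi region 2 had a peak in 15 deposited lists and in 5 shortened ones. Depth is unknown.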
